A study of Mus musculus with 6 samples.

Results

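Mitochondrial protein import translocases were examined in mouse hematopoietic stem cells with and without a deletion of Rbfox2, which encodes an RNA-binding regulator of splicing. The genes were chosen by name: every gene whose symbol starts with Timm or Tomm, together with Hspa9, Grpel1, Samm50, Pmpca and Pmpcb, leaving out pseudogenes. This gave 32 of the 22969 gene identifiers measured. Of these, 10 encode outer membrane proteins, 6 encode small chaperones of the intermembrane space, 13 encode proteins of the inner membrane and matrix, and 3 share only the name (Timmdc1, Tomm34 and the antisense RNA Tomm6os).

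Nearly all mitochondrial proteins are made in the cytosol and imported. The TOM complex of the outer membrane is the common entry gate: its receptors bind precursors and its channel passes them on to the SAM complex for barrel proteins, to the small TIM chaperones and TIM22 for carriers, or to TIM23, whose matrix motor pulls in precursors that the processing peptidase then cuts. Stem cells of the bone marrow are known for keeping mitochondrial activity low and for a close control of protein quality.

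Stem cells were sorted from bone marrow of adult C57BL/6 mice by the absence of lineage markers and CD48 and the presence of Sca-1, c-Kit and CD150, about 500 for each Smart-seq2 library, a full-length cDNA method without molecular identifiers. All mice carried floxed Rbfox2 (Rbfox2-fl/fl). The 3 controls had no Cre, and the other 3 carried Vav1-cre, which is active throughout the blood lineage and not only in stem cells; no control carried Cre alone. The labels name separate mice but give neither age in weeks nor sex.

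The libraries differed in ways that bear on every result. Total counts ran from 47895459 to 55151484 in the controls and from 23474895 to 35650284 in the libraries labelled Rbfox2-deleted. Controls 1 and 3 were nearly identical (chi-square per degree of freedom 3.44, where other pairs had 156 to 808), so they count as 1 sample, with n = 2 against n = 3. Rbfox2 had 238, 11 and 250 counts in controls 1 to 3, against 2, 87 and 10 in libraries labelled Rbfox2-deleted 1 to 3, so control 2 and deleted 2 go against their labels (log2 fold change −1.49, SE 1.998, edgeR adjusted p = 0.923). Library Rbfox2-deleted 1 stood apart, at 319 on a first principal component (65.0% of the variance) where the others lay between −88.3 and −72.1. By Xist and Eif2s3y, libraries Rbfox2-deleted 1 and 3 came from females and the rest from males. Of the gate's genes, Kit (79.4 to 180 CPM), Ly6a (311 to 875) and Slamf1 (10.7 to 51.6) were detected in every sample. Ly6a had 645 CPM in controls 1 and 3 together and 875 in control 2. It was lower in libraries labelled Rbfox2-deleted 1, 2 and 3, at 392, 311 and 363 (log2 fold change −1.10, SE 0.25, edgeR adjusted p = 0.387). No list of other cells' markers was at 0 throughout. Cd3e and Ly6g stayed under 0.1 CPM in every sample. Of the same lists, Nkg7 ran from 80.1 to 103 CPM and Lyz2 from 1175 to 2065, and the B cell marker Cd79b ran from 127 to 316. Granulocyte and monocyte markers summed to 2085 and 1583 CPM in the controls against 1563, 1408 and 1188 in libraries labelled Rbfox2-deleted. Nearly all of this was Lyz2, at 2065 and 1558 against 1479, 1380 and 1175 CPM. Of the 5 such markers tested, 2 (S100a8 and S100a9) had a fitted fold change above 0 and 3 below. The 7 erythroid markers summed to 574 CPM in Rbfox2-deleted 1 and to between 119 and 192 in the others. Globin genes made up most of the 574, while Epor had 0.15 CPM there and 19.4 to 56.9 in the others. The 6 megakaryocyte markers summed to 291 and 301 CPM in the controls against 52.3, 150 and 227 in libraries labelled Rbfox2-deleted. Of these, 2 had a fitted fold change above 0 and 4 below. The part of these differences in the results below was not tested.

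Values below are counts scaled to a common library total and by TMM (CPM), given for controls 1 and 3 together, then control 2, then libraries labelled Rbfox2-deleted 1, 2 and 3. A member is called separated when all samples of one group lie above all of the other. Fold changes are libraries labelled Rbfox2-deleted over control, on the log2 scale. P values measure only the spread between these 5 samples. In RNA of sorted pools, fewer cells expressing a gene and less RNA in each cell cannot be told apart.

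Import genes together took 0.456% to 0.481% of all counts in the 3 controls and 0.435% to 0.471% in the libraries labelled Rbfox2-deleted. Of the 32 members, 31 passed the filter on low counts, and none of them passed an adjusted p of 0.05 in edgeR's quasi-likelihood test (0% of the 12350 genes tested did). The smallest adjusted p of a member was 0.414. At an unadjusted p under 0.05, 2 members were higher (Samm50 and Tomm20l, where 5.33% of all genes were; Tomm20l had 0 counts in every control and passed the filter only through libraries where it was high) and 2 were lower (Tomm5 and Timm10b, where 4.56% were). DESeq2 called no member either, and 1.47% of all genes; limma-voom called no gene. The fitted fold change was above 0 for 16 members and below 0 for 15, where 53.5% of all genes were above 0. Their median was 0.10, and that of all genes 0.11. Without Tomm20l, 15 members lay above and 15 below, with a median of 0.0043.

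Above every control lay 7 members (22.6%, where 14.9% of all genes did): Samm50, Tomm40, Tomm70a, Timm23, Timm8a1, Hspa9 and Pmpcb. Below every control lay 9 (29.0%, where 17.2% of all genes did): Tomm5, Tomm6, Tomm7, Timm9, Timm13, Timm10b, Timm22, Timm17b and Grpel1. Without library Rbfox2-deleted 1 the counts were 13 higher, where 27.7% of all genes were, and 13 lower, where 26.8% were. At an unadjusted p under 0.05 they were then 7 higher (11.8% of all genes) and 6 lower (11.9%), with a smallest adjusted p of 0.0689 by edgeR. Leaving Tomm20l out of these as well made them 12 separated upwards and 6 higher. The members on either side take in subunits of the same complexes.

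**Figure D1:**
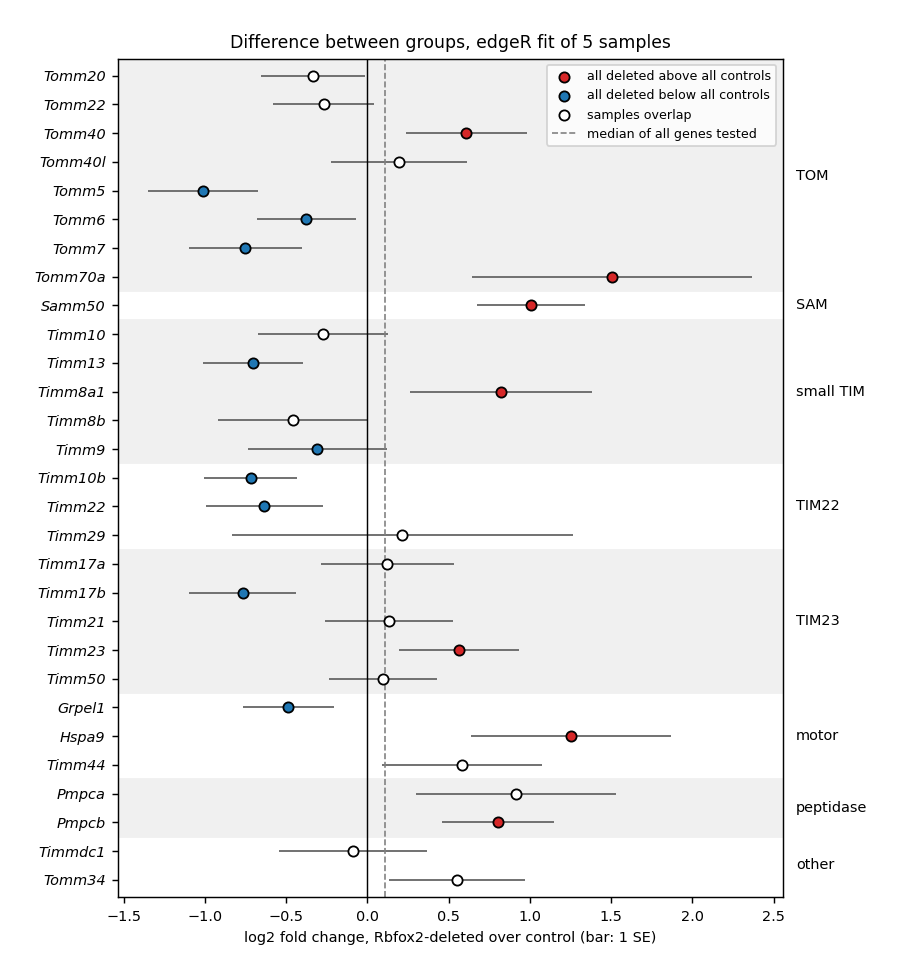
Fitted log2 fold change (libraries labelled Rbfox2-deleted over control) of 29 import genes by complex, with bars of 1 SE from the edgeR fit of 5 samples; red and blue mark genes whose groups do not overlap. Within TOM, Tomm70a and Tomm40 lie to the right and Tomm5, Tomm6 and Tomm7 to the left, and no gene passed the adjusted threshold.

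Promoters were searched for motifs of factors known to act on nuclear genes for mitochondrial proteins. RefSeq windows (GRCm38.p6) of 250 bases before to 50 after the start were at hand for 28 of the 32 members. The ETS motif CCGGAAGT, searched on both strands, stood in the windows of 8 of 28 members (28.6%), against 9.25% of 9737 genes tested here and 4.31% of all 27025 genes with a window. Of the separated members, Pmpcb, Timm23 and Tomm70a (higher) and Timm10b (lower) held it. Samm50, Tomm40 and Timm8a1 (higher) did not, nor did the other lower members with a window, and Hspa9 had no window. Timm10, Timm29 and Timmdc1, which overlapped, and Timm8a2, which was not tested, also held it. The NRF1 motif GCGCANGCG was in 3 of 28 (10.7%; Tomm20, Timm8b and Timm13), against 15.3% of genes tested and 7.03% of all. The E-box CACGTG was in 6 of 28 (21.4%, against 11.7% and 8.09%), and the YY1 motif AAGATGGC in 1 of 28 (3.57%, against 5.31% and 3.19%). The windows below run from 40 bases before the motif to 40 bases after it, or to the last base before the RefSeq start where that comes sooner, on the gene's strand, with the motif in capitals. They are shown because Pmpcb, Timm23 and Tomm70a lay above every control and share the ETS motif, while Timm13, below every control, and Tomm20, which overlapped, hold the NRF1 motif. A match describes the letters and shows no binding.
Pmpcb ETS, chr5:21737104-21737159, plus strand: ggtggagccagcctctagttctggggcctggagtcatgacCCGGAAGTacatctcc
Timm23 ETS, chr14:32201892-32201979, minus strand: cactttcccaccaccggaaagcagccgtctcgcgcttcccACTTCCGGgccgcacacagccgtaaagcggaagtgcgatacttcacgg
Tomm70a ETS, chr16:57121594-57121681, plus strand: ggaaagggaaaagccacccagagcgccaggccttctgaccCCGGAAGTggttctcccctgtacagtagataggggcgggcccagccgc
Tomm20 NRF1, chr8:126945922-126945980, minus strand: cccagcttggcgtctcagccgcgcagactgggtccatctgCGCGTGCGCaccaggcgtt
Timm13 NRF1, chr10:80901114-80901202, minus strand: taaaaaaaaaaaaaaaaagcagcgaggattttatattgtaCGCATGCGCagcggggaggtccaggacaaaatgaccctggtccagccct

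The receptors of the TOM complex did not share a direction. Tomm70a (ENSMUSG00000022752, mm10 chromosome 16, 57121703 to 57156705, plus strand; all gene positions are on this build), the receptor for carrier precursors, had 38.8 and 9.67 CPM in controls, against 121, 41.6 and 44.4 in libraries labelled Rbfox2-deleted. All 3 lay above both controls, but the controls also lay far from each other and the closest values were 41.6 and 38.8 (log2 fold change 1.51, SE 0.86, edgeR adjusted p = 0.678). The fold change was 0.82 without Rbfox2-deleted 1, 0.83 without control 2 and 2.80 without controls 1 and 3. Tomm20, the main receptor for presequences, had 184 and 207 CPM in controls, against 115, 163 and 187 in libraries labelled Rbfox2-deleted, which overlapped (−0.33, SE 0.32, edgeR adjusted p = 0.872). Tomm22, the central receptor that joins the others to the channel, had 234 and 186 against 219, 155 and 149 CPM, also overlapping (−0.27, SE 0.31, edgeR adjusted p = 0.903).

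The channel and its small subunits lay on opposite sides of control. Tomm40 (chromosome 7, 19701313 to 19715438, minus strand), the barrel that forms the pore, had 203 and 224 CPM in controls, against 472, 279 and 228 in libraries labelled Rbfox2-deleted (0.61, SE 0.37, edgeR adjusted p = 0.709). The groups were separated by a narrow gap, 228 over 224, and Rbfox2-deleted 1 was highest, without which the fold change was 0.23. Its paralog Tomm40l overlapped, with 65.6 to 103 CPM over all samples. The small subunits stabilise the complex around the pore. Tomm5 (chromosome 4, 45105208 to 45108114, minus strand) had 269 and 435 CPM in controls, against 138, 170 and 216 in libraries labelled Rbfox2-deleted (−1.01, SE 0.34, unadjusted p = 0.0222, adjusted p = 0.415 by edgeR). Without control 2 its fold change was −0.61. Tomm7 had 352 and 473 against 344, 191 and 199 CPM (−0.75, SE 0.35, edgeR adjusted p = 0.569), with Rbfox2-deleted 1 just under control. Tomm6 had 141 and 158 against 104, 115 and 126 CPM (−0.37, SE 0.30, edgeR adjusted p = 0.822). All 3 small subunits were therefore separated downwards, Tomm7 by the narrowest gap.

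Tomm20l, a relative of Tomm20, had 0 counts in every control and in Rbfox2-deleted 1, and 70 and 68 counts in Rbfox2-deleted 2 and 3. Its samples therefore overlapped. Its mean of 1.19 CPM was 60.2-fold a floor of 3 counts over the control group, a ratio that rests on Rbfox2-deleted 2 and 3 alone. Tomm20l passed the filter on low counts only through those libraries. The gene (chromosome 12, 71111428 to 71123221, plus strand) overlaps the 3′ end of Timm9 (71123173 to 71136684) on the opposite strand, and reads from the overlap cannot be assigned without strand.

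In the outer membrane, Samm50 (ENSMUSG00000022437, chromosome 15, 84192241 to 84217267, plus strand) is the barrel-forming core of the SAM complex that inserts Tomm40 and the porins. It had the smallest p of any member in the main edgeR fit. By DESeq2 that was Hspa9 (unadjusted p = 0.0177, against 0.0579 for Samm50). Samm50 had 185 and 183 CPM in controls, against 505, 310 and 295 in libraries labelled Rbfox2-deleted. The means were 184 ± 1.06 (SD, n = 2) and 370 ± 117 (SD, n = 3), with every labelled-deleted library above both controls. The log2 fold change was 1.01 (SE 0.33, unadjusted p = 0.0213, adjusted p = 0.414 by edgeR), and 0.70 without Rbfox2-deleted 1. Of the 9 outer membrane genes other than Tomm20l, 4 lay above and 5 below control, with a median log2 fold change of −0.27. With Tomm20l, which entered the test only through the libraries where it was high, the 10 genes had a median of −0.04.

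**Figure D2:**
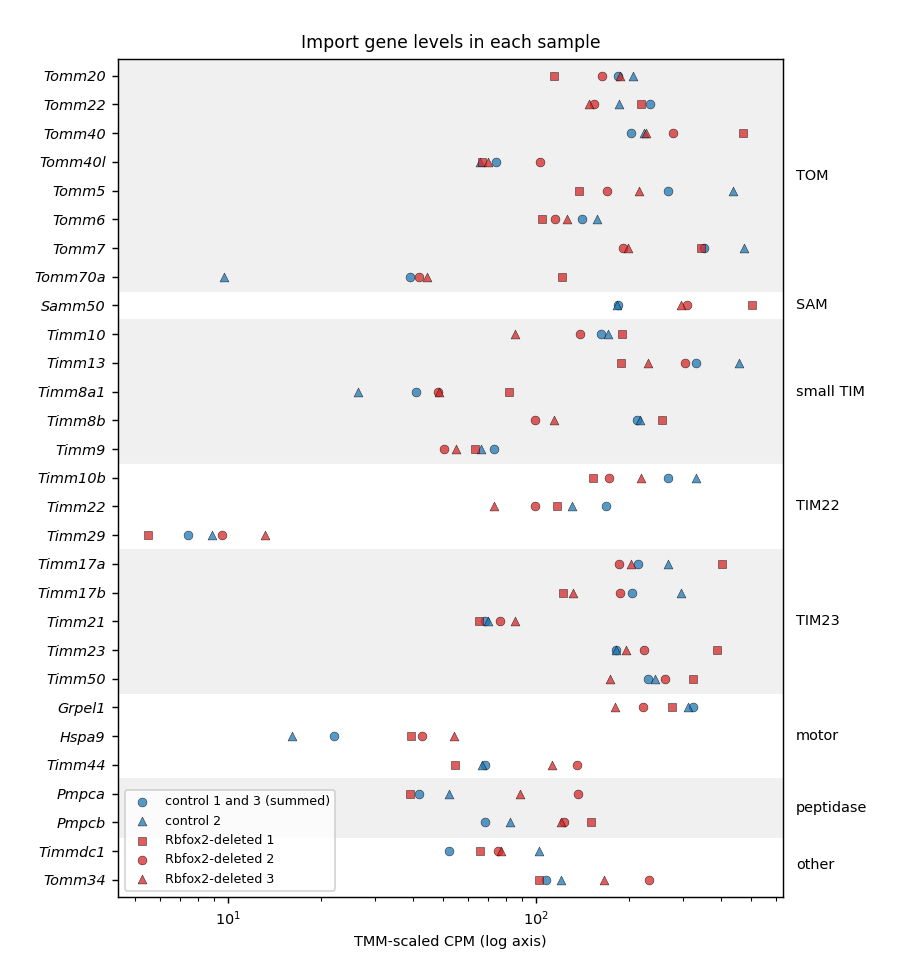
TMM-scaled CPM (log axis) of 29 import genes (Tomm20l, Timm8a2 and Tomm6os, all very low, are not drawn) in 2 control samples and 3 libraries labelled Rbfox2-deleted, one point per sample. Samm50 sits at 183 to 185 CPM in the controls and at 295 to 505 in the libraries labelled Rbfox2-deleted, while Tomm5 lies at 269 to 435 and 138 to 216.

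The small TIM chaperones escort hydrophobic carriers across the intermembrane space as ring-shaped complexes of Timm9 with Timm10 and of Timm8 with Timm13. Of the 5 tested, 1 lay above and 4 below control, with a median log2 fold change of −0.31 against 0.11 for all genes. Timm13 had 332 and 455 CPM in controls, against 189, 304 and 231 in libraries labelled Rbfox2-deleted (−0.71, SE 0.31, edgeR adjusted p = 0.533). Timm9 had 73.2 and 66.4 against 63.5, 50.4 and 55.1 CPM (−0.31, SE 0.43, edgeR adjusted p = 0.925). Both were separated downwards, Timm9 narrowly, and without control 2 the fold change of Timm13 was −0.45. Timm8a1, the X-linked partner of Timm13, had 40.8 and 26.5 against 81.7, 48.2 and 48.3 CPM and was separated upwards (0.82, SE 0.56, edgeR adjusted p = 0.763; 0.51 without Rbfox2-deleted 1). Timm8b and Timm10 overlapped because Rbfox2-deleted 1 was above both controls, at 257 and 190 CPM, and Rbfox2-deleted 2 and 3 below, at 99.4 and 114 for Timm8b and 139 and 85.6 for Timm10. Timm8a2 had 1 count in control 2, 5 in Rbfox2-deleted 3 and 0 elsewhere, and was the member not tested. These genes are short, with a median transcript of 990 bases where all genes tested had 2808.5, and with a correction for transcript length their median became 0.61, against 0.38 for all genes.

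TIM22 inserts carriers into the inner membrane, and its channel and chaperone genes were both below control. Timm22, the pore, had 168 and 131 CPM in controls, against 117, 99.4 and 72.8 in libraries labelled Rbfox2-deleted (−0.63, SE 0.36, edgeR adjusted p = 0.677). Timm10b (chromosome 7, 105640056 to 105643637, plus strand), the small TIM that docks carriers on TIM22, had 269 and 331 against 153, 173 and 220 CPM (−0.72, SE 0.29, unadjusted p = 0.0435, adjusted p = 0.488 by edgeR). Both were separated. Timm29, a further subunit, was low, at 5.51 to 13.2 CPM over all samples, and overlapped. Timm10b overlaps Arfip2 in the annotation, so that without strand some of its counts may belong to that gene. The same limit holds for other members. Among them are Tomm70a (Nit2), Grpel1 (Tada2b), Timm13 (Tmprss9), Tomm6 (Usp49), Pmpca (Inpp5e) and Timm8b (Nkapd1).

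The presequence translocase TIM23 had 4 of 5 genes above control and a median of 0.12, near that of all genes. Timm23, its channel-region subunit, had 181 and 182 CPM in controls, against 387, 224 and 196 in libraries labelled Rbfox2-deleted (0.57, SE 0.37, edgeR adjusted p = 0.740). Timm17b, 1 of a pair of alternative partners of Timm23 and X-linked, had 205 and 296 against 122, 187 and 131 CPM (−0.77, SE 0.33, edgeR adjusted p = 0.529). These were separated in opposite directions. The fold change of Timm23 was 0.19 without Rbfox2-deleted 1, and that of Timm17b −0.47 without control 2. The other partner, Timm17a, overlapped, with 215 and 269 against 401, 187 and 203 CPM, and Rbfox2-deleted 1 alone was above control. Timm50, the receptor that takes precursors from TOM, had 230 and 243 against 323, 263 and 173 CPM (0.10, SE 0.33, edgeR adjusted p = 0.975). Timm21, which links TIM23 to TOM, ranged from 65.5 to 85.5 CPM. With sex as a covariate the X-linked genes kept their sign, at −0.42 for Timm17b and 0.52 for Timm8a1. No control was female, so the group difference in that fit rests on Rbfox2-deleted 2 alone. Sex and deletion cannot be told apart for Rbfox2-deleted 1 and 3.

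Among the genes of the motor and peptidase, the chaperone and its exchange factor diverged. Hspa9, the mitochondrial Hsp70 that pulls precursors in, had 22.0 and 16.1 CPM in controls, against 39.3, 42.8 and 54.1 in libraries labelled Rbfox2-deleted (1.25, SE 0.61, unadjusted p = 0.0853, adjusted p = 0.599 by edgeR). Grpel1, its nucleotide exchange factor, had 323 and 312 against 276, 223 and 181 CPM (−0.49, SE 0.28, edgeR adjusted p = 0.685). Both were separated, in opposite directions. Timm44, which anchors Hspa9 at the channel, had 68.1 and 66.9 against 54.5, 136 and 113 CPM and overlapped through Rbfox2-deleted 1 (0.58, SE 0.49, edgeR adjusted p = 0.839). Of the peptidase, the catalytic subunit Pmpcb had 68.2 and 82.6 against 151, 123 and 120 CPM and was separated upwards (0.80, SE 0.34, edgeR adjusted p = 0.529). Its partner Pmpca had 41.8 and 52.0 against 39.0, 137 and 88.5 CPM and overlapped (0.91, SE 0.62, edgeR adjusted p = 0.757). Of the 13 inner membrane and matrix genes, 9 lay above and 4 below control, with a median of 0.13. The difference between the medians of outer membrane genes (−0.27 without Tomm20l, −0.04 with it) and inner membrane genes was not tested, and single members other than Tomm20l spanned −1.01 to 1.51.

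Partners within a complex, or paralogs such as Timm8a1 and Timm8b, can be set against each other inside each library, which removes library scaling. These pairs were chosen after the values were seen. An exact two-sided permutation test gave no unadjusted p under 0.2, the smallest it can reach with n = 2 against n = 3. No conclusion is drawn from it. Timm8a1 made up 16.1% and 10.8% of the Timm8a1 and Timm8b counts in controls, against 24.1%, 32.7% and 29.7% in libraries labelled Rbfox2-deleted. Hspa9 made up 6.38% and 4.91% of Hspa9 and Grpel1 in the controls and 12.5%, 16.1% and 23.1% in the others. In both pairs every library labelled Rbfox2-deleted had the higher share. Timm23 made up 44.0% and 42.8% of Timm23 and Timm50 in controls, against 54.5%, 46.0% and 53.1% in the others. Tomm70a made up 17.4% and 4.47% of Tomm70a and Tomm20, and 51.4%, 20.3% and 19.2%. Of the 8 pairs, 5 were separated in this way, with Tomm70a entering once with Tomm20 and again with Tomm22. In each of the 5 the first gene was itself a member separated upwards, so this count is no independent support. Shares over other pairs of genes were not computed. The share of Timm17a with Timm17b, of Tomm40 with Tomm40l and of Pmpca with Pmpcb overlapped.

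**Figure D3:**
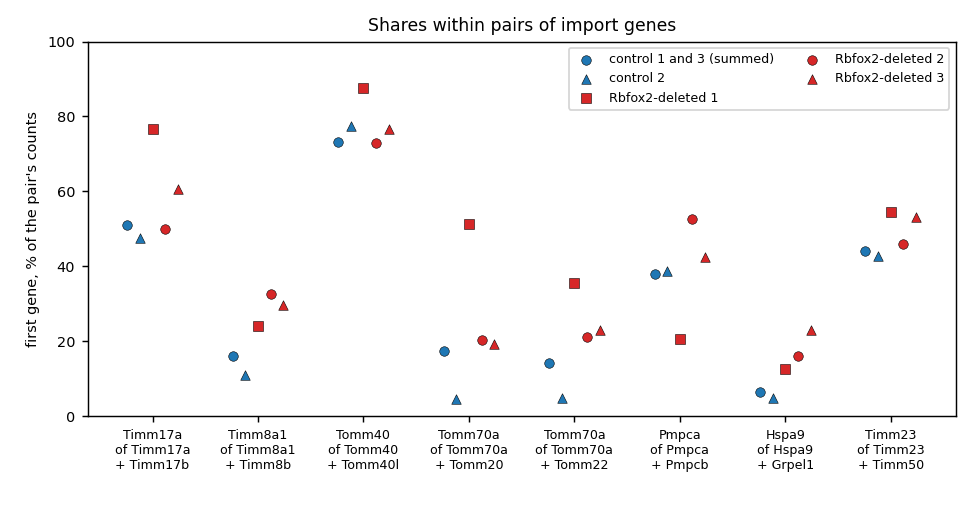
Share (percent) of the first gene in the summed counts of each of 8 pairs of partners or paralogs, one point per sample. The share of Hspa9 with Grpel1 is 4.91% to 6.38% in the controls and 12.5% to 23.1% in the libraries labelled Rbfox2-deleted.

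Levels per length can be compared between genes. Per kilobase of transcript, Tomm5 was the highest member in the controls (551 CPM per kb). Its mean was 273 in the libraries labelled Rbfox2-deleted, where Timm8b had the highest mean (416 in the controls and 303). In Rbfox2-deleted 1, 2 and 3, Timm8b had 496, 192 and 221 CPM per kb, against 216, 266 and 338 for Tomm5. Timm8b thus stood above Tomm5 only in Rbfox2-deleted 1. Tomm7 came next in the controls, at 366 and 218 CPM per kb, and then Timm13, at 321 and 197. In the controls these small subunits of TOM and small TIM chaperones led the order. In the mean of libraries labelled Rbfox2-deleted, Timm23 (155 CPM per kb in the controls and 229) stood above Tomm7, and Tomm40 (130 and 198) above Timm13. In Rbfox2-deleted 1, 2 and 3, Tomm40 had 287, 169 and 139 CPM per kb against 154, 249 and 188 for Timm13. Tomm40 thus stood above Timm13 only in Rbfox2-deleted 1. Timm23 had 330, 191 and 167 against 306, 170 and 177 for Tomm7, and was below it in Rbfox2-deleted 3. Among the lowest were the level of Timm29, at 2.57 CPM per kb in the controls, of Tomm70a, at 4.07 and 11.6, and of Hspa9, at 6.25 and 14.9. Of 15 members with a transcript under 2000 bases, 8 were below control (median −0.27), and of 13 longer ones 5 were (median 0.13). Over all genes the medians were −0.15 and 0.24. Across the 28 members with a role, fold change and log2 length had a Pearson r of −0.15 and a Spearman rho of 0.23, which differ in sign (Tomm20l is short and has the highest fitted value). Over all genes these were 0.03 and 0.03, and the difference by length was not tested. With a correction for transcript length, members below control numbered 7 in place of 15, and the fold change of Tomm5 became −0.19, of Tomm7 −0.02 and of Tomm6 0.41, while that of Samm50 was 1.98, of Hspa9 1.51 and of Timm23 1.28. That correction also moved the median of all genes from 0.11 to 0.38.

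**Figure D4:**
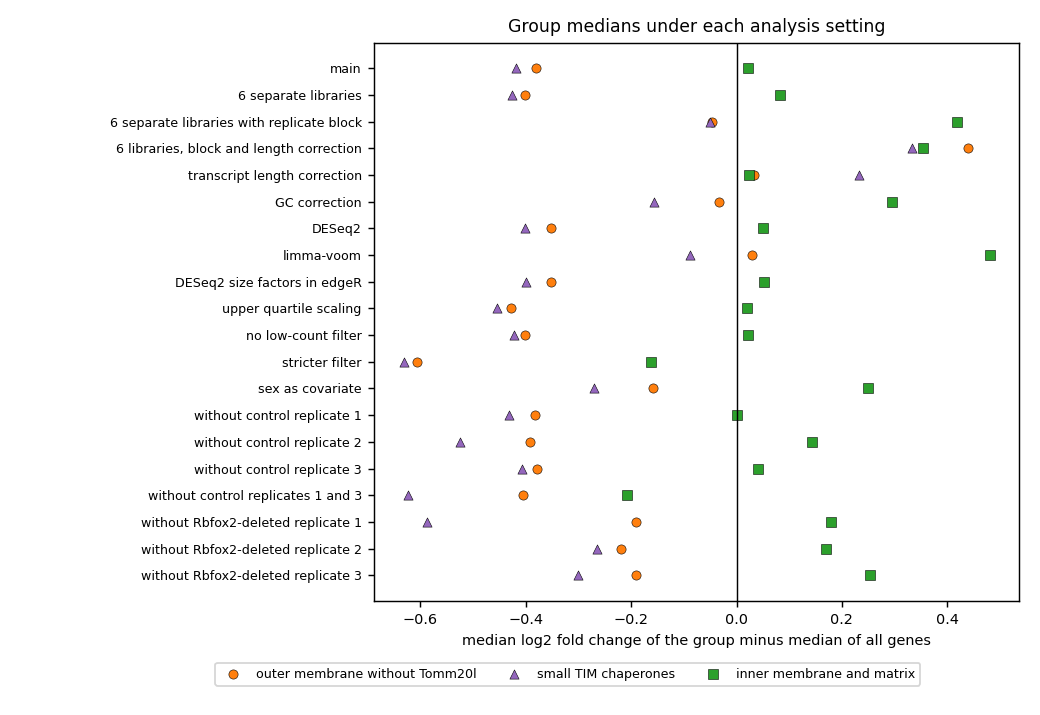
Median log2 fold change of outer membrane (9 genes, without Tomm20l), small TIM and inner membrane or matrix genes minus the median of all genes, under the main analysis and 19 alternatives. The small TIM median lies at −0.42 in the main analysis and at 0.23 with a correction for transcript length.

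Of the members that share only the name, Tomm34, a cytosolic co-chaperone, had 108 and 120 CPM in the controls and 102, 232 and 166 in the others. Timmdc1, an assembly factor of respiratory complex I, had 52.0 and 102 against 65.8, 75.3 and 76.7 CPM. Both overlapped. Tomm6os, which overlaps Tomm6 on the opposite strand, stayed under 1 CPM in every sample.

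Of 21 other import and assembly genes, 10 lay above and 11 below control. At an unadjusted edgeR p under 0.05, where 5.33% of all genes were higher and 4.56% lower, none of these was higher and 1 was lower. That gene was Romo1, an inner membrane protein, with 325 and 401 CPM in controls, against 228, 189 and 190 in libraries labelled Rbfox2-deleted (−0.84, SE 0.26, edgeR adjusted p = 0.3897). Pam16, a regulator of the import motor, had 56.1 and 55.5 against 22.6, 30.3 and 25.9 CPM (−1.09, SE 0.54, edgeR adjusted p = 0.603). Mipep, a peptidase that acts after Pmpcb, was separated upwards from a low level, with 6.66 and 2.27 against 8.80, 26.8 and 15.9 CPM (edgeR adjusted p = 0.695).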

How the data were processed

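The authors deposited whole-number, unnormalized read counts for each gene. Per the submitters' processing notes, Trimmomatic 0.39, featureCounts and DESeq2 1.36.0 were used with build mm10. Aligner, annotation, strand setting and multiply matching reads: not given in the sources used here; therefore genes with near-identical copies have uncertain counts. Rows sharing an identifier (60 identifiers, 134 rows) were summed, as were controls 1 and 3. The test was edgeR's (4.0.16, under R 4.3.3; filterByExpr, minimum count 10, minimum total 15, TMM, quasi-likelihood F test, two-sided, Benjamini-Hochberg over 12350 genes, threshold 0.05). SE was the fold change over the square root of F. DESeq2 1.42.0 and limma 3.58.1 (voom) were alternatives. The scripts were checked on simulated counts. Length was that of the principal GENCODE transcript, corrected by lowess (span 0.4). Values in every sample are given for members with an unadjusted p under 0.05, separated members and central subunits; of other lists, up to 2 genes per direction with the smallest p. Members, lists and the rule were chosen with earlier results of these data known. Smart-seq2 reads carry no molecular identifiers.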

Additional observations from a re-analysis of the deposited data

How the results depend on the processing

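No member passed the threshold in the main analysis or in any of 19 alternatives, while DESeq2 called 181 genes in all. The sign held for 17 members in every alternative that tested them. Tomm20l is among these, but it was tested in only 13 alternatives. With 0 counts in every control its sign was fixed in advance. Of 582 member values, 43, in 14 members, had the other sign, and the cause was not tested. Members below control numbered 7 with a length correction, 9 with a GC correction and 9 with the replicate block and a length correction, against 20 with upper quartile scaling, 18 without a filter and 17 with the stricter filter (15 in the main analysis). The outer membrane median (main −0.04 over 10 genes) was −0.29 with 6 separate libraries, −0.32 with the replicate block, 0.43 with block and length, 0.64 with length, 0.43 with GC, −0.38 with upper quartile scaling, −0.20 without a filter, −0.46 with a stricter filter, 0.062 with sex and 0.065 without controls 1 and 3. The sex setting rests on Rbfox2-deleted 2 alone, because no control was female. Leaving out 1 library gave −0.21 (Rbfox2-deleted 2) to 0.028 (Rbfox2-deleted 1). Tomm20l was not tested with 6 libraries (block included), with the stricter filter or without Rbfox2-deleted 2 or 3, so those medians cover 9 genes, whose main median was −0.27. Over these 9 genes the median was below 0 in every setting except with length (0.41), GC (0.37) and block and length (0.43), a comparison added after seeing the data. The inner median was 0.35 with block and length, 0.40 with length, 0.70 with GC and −0.18 with upper quartile scaling. Without Rbfox2-deleted 1, 13 members were separated upwards, an alternative chosen after seeing the data. Replicate numbers did not pair the libraries (correlations of same-numbered deviations −0.04, 0.01 and 0.07).

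The values with the other sign were as follows. With length they were Grpel1 0.17, Timm10 0.66, Timm8b 0.61, Timm9 0.44, Timmdc1 0.050, Tomm20 0.25, Tomm22 0.065 and Tomm6 0.41. With block and length they were Timm10 0.47, Timm8b 0.32, Timm9 0.31, Timmdc1 0.30, Tomm20 0.22 and Tomm6 0.43. With GC they were Grpel1 0.10, Timm10 0.30, Timm8b 0.23, Timm9 0.25, Timmdc1 0.19 and Tomm22 0.37. Upper quartile scaling gave Timm17a −0.28, Timm21 −0.18, Timm29 −0.069, Timm50 −0.27 and Tomm40l −0.12. Without a filter Timm17a was −0.058, Timm21 −0.020 and Timm50 −0.076. With the stricter filter Timm17a was −0.10, Timm21 −0.019 and Timm50 −0.10. With voom Timm17a was −0.0049 and Timmdc1 0.12. With sex, where the group difference rests on Rbfox2-deleted 2 alone, Timm17a was −0.37 and Tomm6os 0.0068. With 6 libraries Timmdc1 was 0.089, and 0.17 with the replicate block. Without controls 1 and 3 Timm17a was −0.064. Leaving out 1 library gave −0.33 to 0.30 for Timm17a, −0.12 to 0.47 for Timm29, −0.13 to 0.30 for Timm50, −0.14 to 0.49 for Timmdc1 and −0.050 to 0.29 for Tomm40l. Each library held at least 23474895 counts, and Tomm20l, Tomm6os and Timm8a2 had the lowest counts of the members. Counting error was not computed, and its part in the spread between samples was not tested.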

Other observations

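Other mitochondrial genes with an unadjusted p under 0.05 lay on both sides of control, none past the adjusted threshold by edgeR. Over all genes, 5.33% were higher and 4.56% lower at that unadjusted p. Of 13 proteases and quality control genes, 7 lay above and 6 below control. Pink1, the kinase that accumulates on mitochondria when import fails, had 98.3 and 89.5 CPM in controls, against 183, 238 and 185 in libraries labelled Rbfox2-deleted (log2 fold change 1.11, SE 0.31, edgeR adjusted p = 0.387). Clpp, the matrix protease, had 425 and 623 against 210, 284 and 217 CPM (−1.14, SE 0.29, edgeR adjusted p = 0.387). The 2 genes were separated in opposite directions. Of 11 carriers and porins, 7 lay above and 4 below; Slc25a20, the carnitine carrier, had a log2 fold change of 1.43 (SE 0.38, edgeR adjusted p = 0.387) and the porin Vdac3 one of 0.80 (SE 0.31, edgeR adjusted p = 0.472). Of 6 tested genes of the cristae organising system, 2 lay above and 4 below, and Minos1 had −0.83 (SE 0.24, edgeR adjusted p = 0.387).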
